A study of Mus musculus with 4 samples.

Results

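Solute carriers, ion channels, ion pumps and ABC transporters made up 40 of the 1132 gene symbols that the authors listed as changed when the long non-coding RNA Mrhl was targeted in mouse embryonic stem cells. Members were the protein-coding symbols in the authors' lists that carry an Slc, Slco, Abc, Kcn, Scn, Cacn, Clcn, Trpc, Trpm, Trpv, Mcoln or Atp prefix followed by a member number or letter. The cells were E14tg2a, an established embryonic stem cell line of the 129/Ola strain, grown on gelatine. They received either a scrambled shRNA or an shRNA against Mrhl by transient transfection and were harvested 48 hours later, with 2 libraries in each of the 2 groups. The labels also carry a field named lentivirus, and they name 1 shRNA against Mrhl and no parental cells without shRNA.

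The authors' deposited tables assign each listed gene 1 signed fold-change value for sh-Mrhl against scrambled, with a minus sign for genes that were lower after sh-Mrhl. Whether the value is a log2 or a linear fold is not stated, so it is printed as deposited and is not turned into a fold. No value per library, level, depth or p-value was in the tables, so no value has a replicate error and no difference could be tested. Lower and higher therefore mean that the authors listed the gene so. Mrhl itself is not in the lists, and the level of the targeted RNA was not analysed here. None of the 10 embryonic stem cell markers examined, such as Pou5f1 and Nanog, was listed, and the same held for 15 markers of fibroblasts, neural cells and endoderm. Without levels, these absences do not check the cell type.

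Transport proteins move ions and small molecules across membranes that are otherwise impermeable to them. Channels open a pore through which ions run down their gradient, pumps and ABC transporters spend ATP, and most solute carriers couple the movement of a substrate to a gradient or exchange it for another solute. Each tissue uses its own set of them, such as bile acid carriers in liver, voltage-gated channels in nerve and muscle, and anion exchangers in red cells and kidney.

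Of the 40 members, 22 were listed as lower and 18 as higher, so that 55.0% were lower. The same share was 62.7% over all 553 listed protein-coding symbols with a single direction, and 37.3% of those were higher. Since listing and direction are the authors' calls, this split is a description of the lists. The members' median absolute value was 1.98 in the authors' deposited tables, against 1.96 over all listed protein-coding symbols. Lower members had a median of -2.15 and ran from -3.67 to -1.52 in the authors' deposited table, whereas higher members had a median of 1.97 and ran from 1.70 to 3.94. An absolute value of at least 2 was reached by 12 of the 22 lower members, or 54.5%, and by 7 of the 18 higher ones, or 38.9%. Over all listed protein-coding symbols these shares were 46.1% and 40.3%, near those of the members. The lowest absolute values in the authors' deposited tables were 1.5003 on the lower and 1.5032 on the higher side. The members nearest to that edge were Slc10a1 at -1.52 and Slc26a1 at -1.57 in the authors' deposited table.

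**Figure D1:**
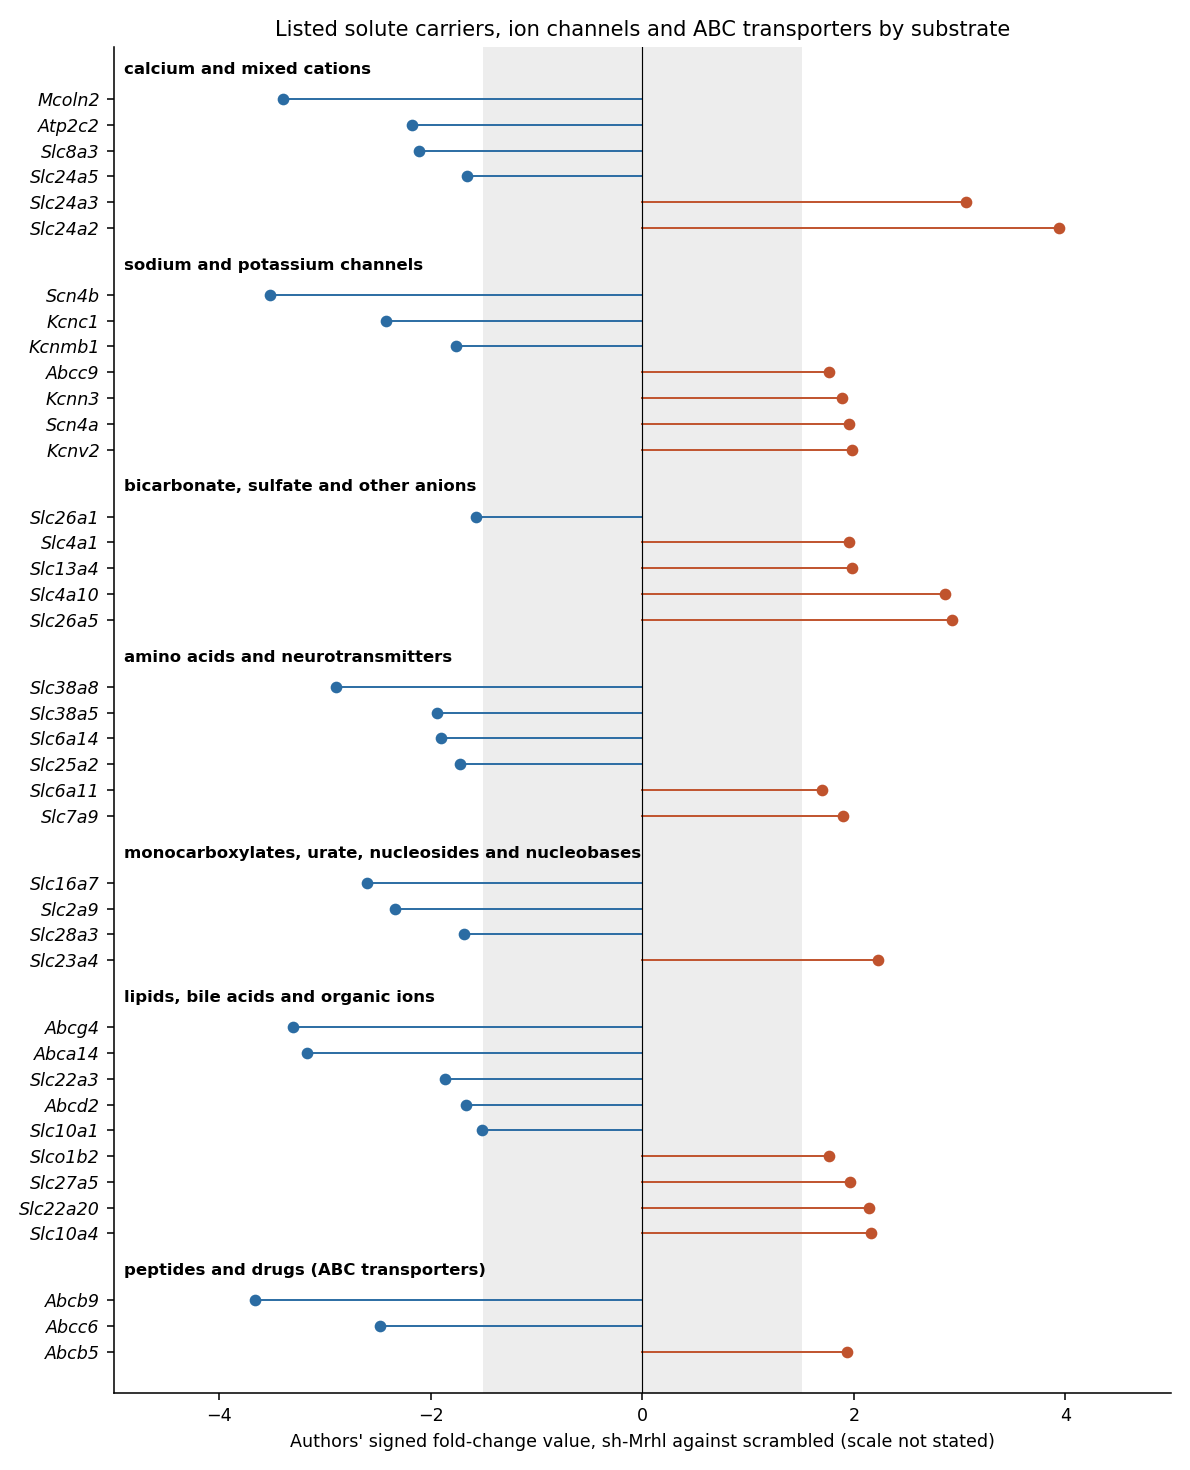
The authors' signed fold-change value for sh-Mrhl against scrambled (horizontal axis, scale not stated) is shown for each of the 40 members, grouped by substrate, with blue points for genes listed as lower and orange points for genes listed as higher. Grey marks the range from -1.5 to 1.5, in which the tables hold no value. Both directions occur in all 7 groups, and the ends of the range are Abcb9 at -3.67 and Slc24a2 at 3.94.

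Listed and annotated symbols were counted for each prefix. GENCODE M21 annotates 688 protein-coding symbols with these prefixes, and 40 of them, or 5.81%, were listed, beside 2.5% of all annotated protein-coding symbols. The genes that the authors tested are not known, so these shares are not enrichments. Of 370 Slc symbols 24 were listed, 12 in each direction. ABC symbols had 7 of 50 listed, 5 lower and 2 higher. The potassium channel prefix Kcn had 4 of 94, and the sodium channel prefix Scn had 2 of 14, both evenly split. No member was found among 26 Cacn symbols of voltage-gated calcium channels, 9 Clcn symbols of chloride channels and exchangers, or 23 Trpc, Trpm and Trpv symbols of TRP cation channels. The Atp prefix, which covers ion pumps, lipid flippases, ATP synthase and accessory proteins, had 1 of 85 listed, and none of the 43 Atp5 and Atp6 symbols, which cover subunits and accessory factors of ATP synthase and the vacuolar proton pump, was among the listed genes.

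**Figure D2:**
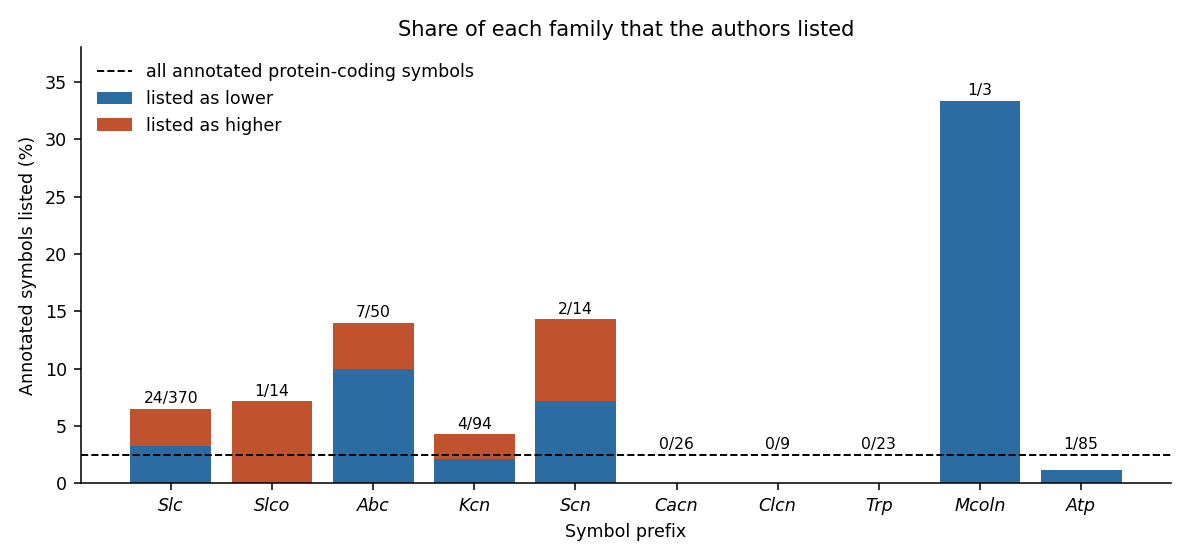
Bars give the percentage of annotated protein-coding symbols of each prefix that the authors listed, with the part listed as lower in blue and as higher in orange, and the numbers above them give listed over annotated symbols. The dashed line is the 2.5% of all annotated protein-coding symbols. The Mcoln bar rests on 1 of 3 symbols, and Cacn, Clcn and Trp have no listed symbol.

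Among the larger solute carrier families, the nucleotide sugar carriers of Slc35 had 0 of 27 listed, the zinc and metal carriers of Slc30 and Slc39 had 0 of 24, and the mitochondrial carriers of Slc25 had 1 of 47. At 2.5% of all annotated protein-coding symbols, families of this size would have about that many, so these counts are not results about the families. The same holds for the low counts of the Cacn, Clcn, Trpc, Trpm, Trpv and Atp symbols above. An unlisted gene may still have changed, since its value was not analysed here. The potassium-dependent sodium-calcium exchangers of Slc24 had 3 of 5 listed. This was the highest share of the families counted, in a family of only 5 genes, so nothing is read from it.

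Promoter sequences are shown for 7 members that open the accounts below. They are the 3 listed Slc24 exchangers, which differ in direction, the pore-forming and auxiliary subunits Scn4a and Scn4b of voltage-gated sodium channels, which also differ, and Abcb9 and Mcoln2, both of endosomes and lysosomes and both listed as lower. Each window is from RefSeq on GRCm38.p6 and runs from 250 bases before to 50 bases after an annotated start, 5′ to 3′ on the gene's strand. Capitals mark CG dinucleotides, the sites of most DNA methylation in mammals.
Slc24a2, minus strand, chr4:87230491-87230790: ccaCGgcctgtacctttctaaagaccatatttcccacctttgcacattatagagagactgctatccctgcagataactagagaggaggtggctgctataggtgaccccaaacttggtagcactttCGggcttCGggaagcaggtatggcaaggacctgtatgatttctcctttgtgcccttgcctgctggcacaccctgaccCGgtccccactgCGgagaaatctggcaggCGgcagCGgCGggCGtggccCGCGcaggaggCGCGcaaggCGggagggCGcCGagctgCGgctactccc
Slc24a3, plus strand, chr2:145167525-145167824: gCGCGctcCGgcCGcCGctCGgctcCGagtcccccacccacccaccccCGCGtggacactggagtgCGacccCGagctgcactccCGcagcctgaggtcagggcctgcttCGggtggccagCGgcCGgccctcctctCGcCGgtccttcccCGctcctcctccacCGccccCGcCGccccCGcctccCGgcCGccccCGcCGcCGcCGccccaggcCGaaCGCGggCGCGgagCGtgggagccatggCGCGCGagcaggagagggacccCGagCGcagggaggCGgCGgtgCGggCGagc
Slc24a5, plus strand, chr2:125067877-125068176: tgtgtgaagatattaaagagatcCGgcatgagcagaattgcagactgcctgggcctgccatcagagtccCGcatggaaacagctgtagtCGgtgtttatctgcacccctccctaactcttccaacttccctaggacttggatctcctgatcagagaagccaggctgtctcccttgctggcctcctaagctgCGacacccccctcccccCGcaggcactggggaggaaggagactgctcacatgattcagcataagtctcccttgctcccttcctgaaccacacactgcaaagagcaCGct
Scn4b, plus strand, chr9:45138374-45138673: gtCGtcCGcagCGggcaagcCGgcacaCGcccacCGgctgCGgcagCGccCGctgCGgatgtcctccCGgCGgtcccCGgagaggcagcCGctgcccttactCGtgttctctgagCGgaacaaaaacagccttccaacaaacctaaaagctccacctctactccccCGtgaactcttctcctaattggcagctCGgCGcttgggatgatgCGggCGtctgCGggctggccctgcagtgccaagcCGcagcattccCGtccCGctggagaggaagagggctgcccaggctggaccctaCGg
Scn4a, minus strand, chr11:106349341-106349640: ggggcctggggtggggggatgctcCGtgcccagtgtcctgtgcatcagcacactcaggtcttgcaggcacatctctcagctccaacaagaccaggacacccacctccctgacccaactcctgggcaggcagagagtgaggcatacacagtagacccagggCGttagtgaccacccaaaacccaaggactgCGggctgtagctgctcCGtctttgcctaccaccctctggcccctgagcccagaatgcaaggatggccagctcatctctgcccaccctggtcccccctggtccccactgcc
Abcb9, minus strand, chr5:124095749-124096048: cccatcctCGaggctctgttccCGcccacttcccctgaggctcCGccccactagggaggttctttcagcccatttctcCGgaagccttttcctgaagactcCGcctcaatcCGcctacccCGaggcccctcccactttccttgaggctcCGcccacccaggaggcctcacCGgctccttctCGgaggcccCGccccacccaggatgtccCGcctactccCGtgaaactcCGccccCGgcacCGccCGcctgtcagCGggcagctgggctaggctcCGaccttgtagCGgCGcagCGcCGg
Mcoln2, plus strand, chr3:146149924-146150223: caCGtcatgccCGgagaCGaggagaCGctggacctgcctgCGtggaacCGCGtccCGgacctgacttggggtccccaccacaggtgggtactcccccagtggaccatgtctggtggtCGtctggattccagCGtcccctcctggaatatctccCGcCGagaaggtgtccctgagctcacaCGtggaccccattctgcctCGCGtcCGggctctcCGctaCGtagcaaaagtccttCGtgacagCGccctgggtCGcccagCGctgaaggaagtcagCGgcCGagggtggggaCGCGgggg

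The number of CG dinucleotides differed widely between these windows. Among the exchangers, the Slc24a3 window held 43, the Slc24a2 window 17 and the Slc24a5 window 6. The Scn4b window held 26 and the Scn4a window 4, while Mcoln2 had 26 and Abcb9 had 23. As a ratio of observed to expected CG, the 7 windows ran from 0.138 for Scn4a to 0.901 for Slc24a3, and the median over the windows of 16516 protein-coding symbols was 0.602. Both listed directions occur among the windows above that median. Below it lie only those of Slc24a5, listed as lower, and Scn4a, listed as higher. The Scn4a window rests on a start far inside the gene, so nothing is read from direction here. The start used for Scn4a lies 3898 bp inside the GENCODE gene, that for Mcoln2 341 bp and that for Scn4b 229 bp. Those windows are therefore not at the outermost starts, and those of Scn4a and Mcoln2 lie wholly inside the gene. The start used for Slc24a2 lies upstream of the GENCODE gene, and its window does not reach the gene.

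Short promoter motifs were searched on both strands. The GC box GGGCGG was found in the windows of Slc24a3 and Abcb9, and in 48.2% of all windows. CCAAT was found in that of Scn4b, and in 38.8% of all windows. The E-box CACGTG, the core of the element recognised by the lysosomal regulator TFEB, was found in that of Mcoln2 and in 8.09% of all windows, and not in that of Abcb9. The TATA motif TATAAA was found in none of the 7 and in 12.9% of all windows. None of these 4 motifs contains another, and a match is a description of the letters only. Of the 40 members 31 had a window, or 77.5%, which is below the 80% required for a check over a whole gene list, so promoters of the members were not compared with those of other genes.

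Genes of calcium and mixed cation transport held the highest value. Slc24a2, which encodes a neuronal and cone photoreceptor exchanger of sodium for calcium and potassium, stood at 3.94 in the authors' deposited table, the fourth highest of 206 protein-coding genes listed as higher. Its relative Slc24a3 stood at 3.06 in the authors' deposited table. Slc24a5, the melanosomal exchanger needed for pigmentation, went the other way at -1.66 in the authors' deposited table. Slc24a2 spans chromosome 4 from 86983124 to 87230477 and Slc24a3 chromosome 2 from 145167754 to 145642166 in mm10, and the latter, at 474 kb, is the longest of the 40 genes. Slc24a5 lies on chromosome 2 from 125068124 to 125088677 and overlaps Myef2 on the opposite strand.

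The other calcium genes were all listed as lower. Mcoln2, encoding a mucolipin cation channel of endosomes and lysosomes, was at -3.39 in the authors' deposited table and lies on chromosome 3 from 146149833 to 146195513. The secretory pathway calcium and manganese pump gene Atp2c2 was at -2.18 in the authors' deposited table. Slc8a3, a sodium-calcium exchanger of brain and skeletal muscle and the single listed gene of the 3 in its family, was at -2.12 in the authors' deposited table. Calcium transport had 4 lower and 2 higher members, near the 62.7% lower over all listed protein-coding symbols, and the exchangers were found in both lists.

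Among sodium and potassium channel genes, 3 were lower and 4 higher, beside 62.7% lower over all listed protein-coding symbols. Scn4b, an auxiliary beta subunit of voltage-gated sodium channels, stood at -3.52 in the authors' deposited table, ranking as the seventh most negative of 347 protein-coding genes. Scn4a, the pore-forming subunit of the skeletal muscle sodium channel, was at 1.96 in the authors' deposited table. Scn4b lies on chromosome 9 from 45138395 to 45154152 and Scn4a on chromosome 11 from 106318592 to 106353288.

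Potassium channel genes differed by role as well as by direction. Kcnc1, encoding a channel of fast-spiking neurons, was at -2.42 in the authors' deposited table, and Kcnmb1, the smooth muscle beta subunit of the large-conductance calcium-activated channel, was at -1.76. Kcnn3, a small-conductance calcium-activated channel, was at 1.89 in the authors' deposited table. Kcnv2 encodes a subunit that forms no channel alone and modifies others in photoreceptors, and it was at 1.98 in the authors' deposited table. Abcc9, an ABC family gene that encodes the sulfonylurea receptor subunit of ATP-sensitive potassium channels, was at 1.76 in the authors' deposited table. Kcnmb1 lies within the span of Kcnip1, a gene on the opposite strand that encodes a potassium channel-interacting protein and was not listed. Whether the authors counted reads by strand is not stated, so the reads of such an overlapping pair may not be told apart.

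Genes for the transport of bicarbonate, sulfate and other anions had 4 higher members and 1 lower member, beside 37.3% higher over all listed protein-coding symbols. The group has 5 genes and was formed after the tables had been seen, so nothing is read from its split. Slc26a5, the gene of the outer hair cell motor protein prestin, stood at 2.93 in the authors' deposited table. Slc4a10, a sodium-dependent bicarbonate transporter of neurons and choroid plexus, stood at 2.86 in the authors' deposited table. Slc4a1, the anion exchanger of red cells also called band 3, was at 1.95, and the sulfate carrier gene Slc13a4 was at 1.98 in the authors' deposited table. Slc26a1, a sulfate and oxalate exchanger of liver and kidney, was the lower member at -1.57 in the authors' deposited table, close to the smallest absolute value listed. It overlaps Idua on the opposite strand. The 2 listed genes of the Slc4 family were both higher, while the 2 listed genes of the Slc26 family were split.

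Amino acid and neurotransmitter carriers had 4 lower and 2 higher members, again near the overall 62.7% lower. Slc38a8, encoding a glutamine carrier of the eye and brain, had the most negative value of the 25 solute carriers described here, at -2.90 in the authors' deposited table. Its relative Slc38a5, another glutamine carrier, stood at -1.95 in the authors' deposited table. These were the 2 listed genes of 11 in the family. Slc6a14, a carrier of neutral and cationic amino acids, was at -1.90 and the mitochondrial ornithine carrier gene Slc25a2 was at -1.72 in the authors' deposited table. Slc25a2 spans 1369 bp and is the shortest member. On the higher side, Slc7a9, a subunit of the renal cystine transporter, was at 1.899 and Slc6a11, a GABA carrier of glia, stood at 1.70 in the authors' deposited table. The latter is the smallest value among the higher members.

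Carriers of small metabolites had 3 lower members and 1 higher member, near the 62.7% lower over all listed protein-coding symbols. Slc16a7, a monocarboxylate carrier that takes up lactate and pyruvate, was at -2.60 in the authors' deposited table. Slc2a9, a member of the glucose carrier family that transports urate, stood at -2.34 in the authors' deposited table. The concentrative nucleoside carrier gene Slc28a3 was at -1.69 in the authors' deposited table. Slc23a4, whose rat counterpart carries nucleobases, stood on the higher side at 2.23 in the authors' deposited table.

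The 9 genes for lipids, bile acids and organic ions were split into 5 lower and 4 higher, beside the 62.7% lower of all listed protein-coding symbols. Abcg4, a sterol transporter of the nervous system, was at -3.30 in the authors' deposited table, and Abca14, of the subfamily whose better known members move lipids, was at -3.17. Abcd2, which imports very long chain fatty acids into peroxisomes, was at -1.67 in the authors' deposited table. Among genes of hepatocytes, the bile acid uptake carrier gene Slc10a1 was lower at -1.52, whereas Slco1b2, an organic anion carrier, was higher at 1.77 and Slc27a5, an enzyme of bile acid and fatty acid activation, was higher at 1.96 in the authors' deposited tables. Liver genes were thus found in both lists. Slc10a4, a relative of Slc10a1 found on synaptic vesicles, stood at 2.16 in the authors' deposited table. The organic cation carrier gene Slc22a3, imprinted in mouse placenta, was at -1.86 and Slc22a20, an organic anion carrier of olfactory epithelium, was at 2.14 in the authors' deposited tables. In both the Slc10 and the Slc22 family, then, 1 listed gene was lower and 1 was higher.

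Of the 3 remaining ABC genes, Abcb9 had the most negative value of all members. Abcb9, a lysosomal peptide transporter, stood at -3.67 in the authors' deposited table, the third most negative protein-coding gene, and lies on chromosome 5 from 124061530 to 124095798. Abcc6, needed in liver to keep soft tissue from calcifying, was at -2.48 in the authors' deposited table. Abcb5, a relative of the multidrug pump P-glycoprotein, stood on the higher side at 1.93 in the authors' deposited table. The 5 lower ABC genes had a median of -3.17 in the authors' deposited table, against -1.95 over all lower protein-coding genes. Of them 4 reached an absolute value of at least 2, as did 46.1% of all lower protein-coding genes. The 12 lower solute carriers had a median of -1.88 in the authors' deposited table, and 33.3% of them reached 2. With 5 lower ABC genes and no replicate error, nothing is read from these differences. The 2 higher ABC genes stayed under 2, as did most higher protein-coding genes, of which 40.3% reached it.

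**Figure D3:**
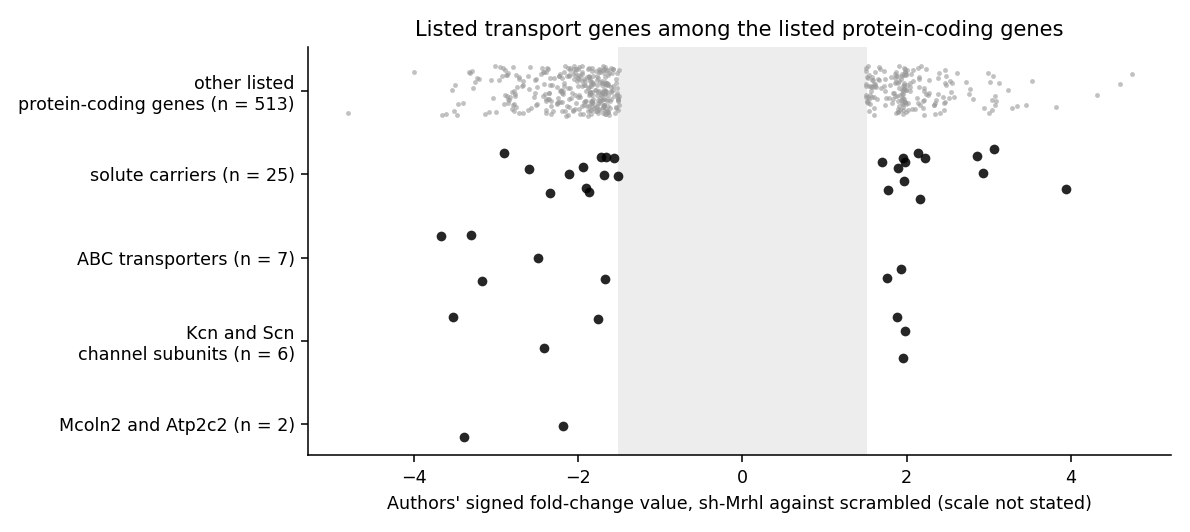
Each point is a gene at its signed fold-change value in the authors' deposited tables (horizontal axis, scale not stated), with the 513 other listed protein-coding genes in grey and the 40 members in black, split by family, and vertical scatter within a row carries no meaning. The 5 lower ABC genes lie between -3.67 and -1.67, and among the members the solute carriers extend farthest to the right, to 3.94.

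Chromosome positions show where members sit near each other. The 40 genes lie on 17 chromosomes, and chromosome 6 has 5 members that were all listed as higher, namely Slc23a4, Slc13a4, Slc6a11, Slco1b2 and Abcc9. Chromosomes 5 and 7 also have 5 members each, with 3 lower and 2 higher on both, and 37.3% of all listed protein-coding symbols were higher. Chromosome 6 was picked out after these counts were seen. On 4 occasions a pair of members lay less than 500 kb apart, and each pair shared a direction. Slc38a8 and Atp2c2 on chromosome 8 are 198 kb apart and both lower, Slc10a1 and Slc8a3 on chromosome 12 are 229 kb apart and both lower, and Abcc6 and Kcnc1 on chromosome 7 are 366 kb apart and both lower. Slc23a4 and Slc13a4 on chromosome 6 are 280 kb apart and both higher. Over all listed protein-coding pairs within that distance, 67 of 123, or 54.5%, shared a direction, and 4 pairs are too few to be set against that share. Between Slc38a8 and Atp2c2 lie 7 protein-coding genes, of which Wfdc1 was listed in the opposite direction, at 1.503 in the authors' deposited table.

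The members are long genes, as is usual in these families. Their median span was 42.7 kb, with quartiles of 15.9 and 103 kb, against 32 kb for the 648 unlisted genes of the same families, 21.3 kb for the 509 other listed protein-coding genes that were found in GENCODE and 16.9 kb for other unlisted protein-coding genes. Lower members had a median span of 38.2 kb and higher members 49.0 kb. The median exonic length was 4728 bp for members, 4579 bp for unlisted genes of the same families and 3351 bp for the other listed protein-coding genes. Of the 40 members 13 are overlapped by a gene on the opposite strand, Abcb9 and Slc24a3 among them. Slc24a3, Atp2c2 and Slc6a14 are overlapped by genes on the same strand. None of the members overlaps another listed gene.

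**Figure D4:**
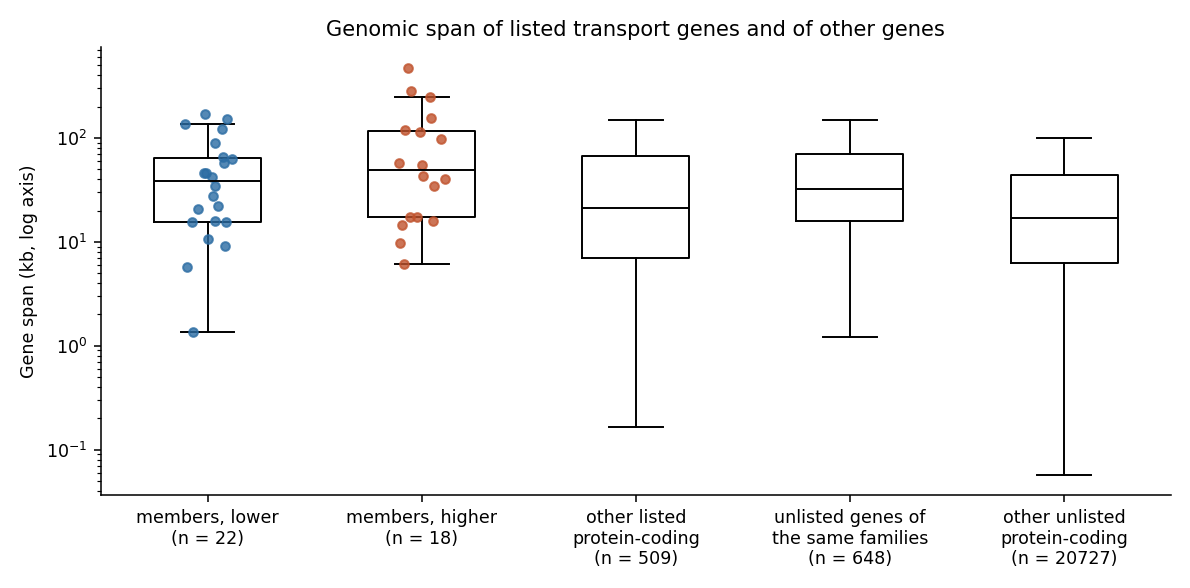
Gene span in kb (log axis) is shown for the 22 lower and 18 higher members and for 3 sets of other protein-coding genes, with boxes from the lower to the upper quartile, a line at the median, whiskers to the farthest value within 1.5 times the box height, and points for single members. Members overlap widely with unlisted genes of their families, with medians of 38.2 and 49.0 kb against 32 kb.

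Channels, pores and transport regulators outside these prefixes were listed as well. Of 269 such annotated symbols 22 were listed, 13 lower and 9 higher, or 8.18%, beside 2.5% of all annotated protein-coding symbols. Their split was near the 62.7% lower over all listed protein-coding symbols, as was that of the ligand-gated channels, with 6 lower and 3 higher of 71. The most negative of these was the GABA receptor subunit gene Gabrr1 at -2.57, and the highest was the muscle acetylcholine receptor subunit gene Chrne at 2.20 in the authors' deposited tables. Among other pores, the intracellular calcium release channel gene Ryr3 was at -3.21 and the proton channel gene Otop2 was at 3.02 in the authors' deposited tables. The aquaglyceroporin gene Aqp7 was at -1.98 in the authors' deposited table. Both listed regulators were lower, with the sodium pump modulator gene Fxyd4 at -2.35 and the kinase gene Wnk4, which controls renal salt carriers, at -1.84 in the authors' deposited table. Of the other transporters, the synaptic vesicle protein gene Sv2b was at -2.18, Sidt1 at 2.21 and the ammonium transporter gene Rhcg at 2.02 in the authors' deposited tables.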

How the data were processed

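The authors' deposited tables hold, for genes listed as lower or higher, 1 signed fold-change value for sh-Mrhl against scrambled, handled as a score because the deposited headers do not state its scale. TopHat2, Cuffdiff and mm10 are named in the submitters' processing notes. No tool version, annotation, listing threshold or statistical test is given in the sources used here. Depth per library is unknown, and nothing says whether the libraries came from separate cultures.

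Symbols were taken once per table, and the 1 symbol in both tables was left out of counts by direction. Members matched the symbol prefixes and were protein coding. 1 matching gene is not reported here. Members and lists were chosen with earlier results of these data known, and the substrate groups after the tables were seen. Every member is named. No test was run. All 40 members were found in GENCODE M21 (GRCm38). Gene length is the genomic span, and exonic length the union of exons. For promoters, the RefSeq window nearest the GENCODE start was used. The sequence measures were tested on simulated data. Computation used Python 3.11.15 with numpy 2.4.6 and pandas 2.3.3, and scipy 1.17.1; figures were drawn with matplotlib 3.10.9.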

Additional observations from a re-analysis of the deposited data

How the results depend on the processing

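With absolute values of at least 2, 12 members were lower and 7 higher, and their median absolute value was 2.86. Without values from 1.9 to under 2 the median was 2.17, and without Scn4b, Kcnmb1, Kcnv2 and Abcc9, which form no channel or transporter alone, it was 2.05. The share of lower members was 55.0% and ran from 55.0% to 63.2% over the 4 alternatives, with the highest value at an absolute value of at least 2, beside 62.7% lower over all listed protein-coding symbols. Of the RefSeq symbols of these families 5.78% were listed, against 5.81% in GENCODE. No paired analysis was possible because each gene has 1 value for the whole comparison, which also kept replicates from being left out. The limits set by depth are unknown.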

Other observations

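Values from 1.9 to under 2 were held by 6 of the 18 higher members, or 33.3%, and by 2 of the 22 lower ones, or 9.09%. Over all listed protein-coding symbols the shares were 23.8% of the higher and 7.78% of the lower. Over the 513 that are not members they were 22.9% and 7.69%, so this asymmetry is also found outside the members. The higher members in that range were Kcnv2, Slc13a4, Slc27a5, Scn4a, Slc4a1 and Abcb5, and the lower ones were Slc38a5 and Slc6a14. Its cause was not tested.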
